A study of Arabidopsis thaliana with 12 samples.

Results

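Transcript levels in rosettes of the Arabidopsis thaliana mutant pmr5 were compared with those of its wild type, the accession Col-0. The comparison rests on 6 of the 12 arrays of the series, 3 labelled pmr5 and 3 labelled Col-0, taken by the genotype in the sample labels. Both groups came from untreated plants aged 3 weeks, kept at 22 °C under a daily light period of 14 h, and each Affymetrix ATH1 array received label made from 15 µg of total RNA. The labels call the replicates biological and name neither the pmr5 allele nor the number of plants behind a sample, so p-values reflect only how far these samples differ, which may be technical. The other 6 arrays, 3 of the mutant pmr6 and 3 of the double mutant pmr5 pmr6, helped to estimate that spread. An array reports 1 intensity for a probe set, that is, for the short probes designed against 1 transcript. Of 22810 rows in the table, 64 carry AFFX (control) identifiers and were set aside, which left 22746 to compare. After the dimmest 25% had been left out, 17059 of these were tested. The identifiers could not be tied to the values, as described below, so rows of control transcripts may be among those tested.

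PMR5 encodes a member of the trichome birefringence-like family of plants, whose studied members add acetyl groups to polysaccharides of the cell wall. The mutant was isolated because powdery mildew, a fungus that feeds on living leaf cells, grows poorly on it, and its cell walls are altered in pectin. Walls are monitored by receptor kinases at the cell surface, and changes in pectin are known to alter growth and defence in leaves. The plants measured here were not infected, so the comparison asks how transcript levels in the leaf differ with the mutation before any contact with the fungus.

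The rows could not be tied to genes, so probe sets are described by their values and their place in the table. For an order of identifiers to be accepted, pairs of rows annotated to the same gene had to agree in level at a correlation over 0.5, beside criteria on control rows and on photosynthesis genes. In the deposited order, 140 such pairs correlated at r = 0.07 (95% interval -0.10 to 0.23), and 3 other orders, with the control identifiers first or the list turned round, gave at most 0.19. Moving the identifiers by 1 to 10 rows either way gave at most 0.24 in the deposited order. With the control identifiers first and the others as deposited, such moves gave at most 0.34, also under 0.5. For comparison, neighbouring rows of any kind correlated in level at 0.22. The PMR5 transcript, leaf marker genes and gene groups were therefore not analysed here. In whole rosettes, fewer cells of a type and less RNA per cell cannot be told apart.

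As read from the values, the 6 arrays had been scaled to a common level, so their likeness in overall signal was fixed in advance. Median intensities were 172.5, 168.4 and 175.2 in Col-0 and 188.2, 176.4 and 180.8 in pmr5. Every pmr5 median lay above every Col-0 median. Any 2 Col-0 arrays had a Spearman correlation over all rows between 0.956 and 0.963, any 2 pmr5 arrays between 0.958 and 0.97, and a Col-0 and a pmr5 array between 0.949 and 0.968. Replicate 1 of pmr5 had a raised dim end, with a 5th percentile of 9.6 against 3 to 5 on the other 5 arrays. The headers of the instrument records place each replicate number in 1 hybridization run, and place every Col-0 array on fluidics module 1 and every pmr5 array on module 2, so that module and genotype cannot be told apart. The first 9 rows of the table rise and fall together across the arrays (mean correlation 0.94) as spiked-in control transcripts do. By group mean all 9 were lower in pmr5, with log2 changes from -0.65 to -0.35 and a median of -0.45. The arrays of the groups overlapped, however. The mean intensity of the 9 rows was 4355.9, 3269.9 and 2051 in Col-0 and 2258.3, 3826.9 and 1288.2 in pmr5, in the order of the replicate numbers. When all rows were fitted, limma called 0 of the 9, against 5.15% of all (1 of the 9 had an unadjusted p under 0.05). Rows that move together hold few independent values, so this count does not show that they were unchanged.

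In pmr5, 715 probe sets rose and 663 fell. That is 8.08% of the 17059 tested (limma, Benjamini-Hochberg adjusted p under 0.05), 4.19% rising and 3.89% falling, and 3480 had an unadjusted p under 0.05. The median log2 change of all probe sets tested was 0.03, with 9341 of them (54.8%) above 0, and the 5th and 95th percentiles of the changes were -0.42 and 0.55. All changes are differences of mean log2(intensity + 28), a scale that understates the change of dim probe sets. A model that also held the hybridization run made 1462 calls. Leaving out pmr5 replicate 1 lowered the count to 784, and leaving out Col-0 replicate 3 lowered it to 902.

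Called increases had a larger median size than called decreases, and they were dimmer. Among the 715 that rose, the median log2 change was 0.60 (1.51-fold), with quartiles of 0.43 and 0.96. Among the 663 that fell, the median size was 0.41 (1.33-fold), with quartiles of 0.33 and 0.55. By size, 346 increases were under 1.5-fold, 205 between 1.5- and 2-fold, 158 between 2- and 4-fold and 6 over 4-fold. The decreases numbered 532, 104 and 27 in the first 3 of these classes, and the largest was 3.28-fold. Of the 191 called changes of at least 2-fold, which make up 1.12% of the probe sets tested, 164 (85.9%) were upward. The median mean level of the increases was at the 69th percentile of the probe sets tested and that of the decreases at the 88th, and dim probe sets needed a larger change to be called. Between probe sets of like brightness, the gap in size varied over the 10 bins of brightness described below. The median changes were 1.18 and -0.998 in the third bin and 0.73 and -0.597 in the fifth. They were 0.44 and -0.40 in the ninth and 0.44 and -0.35 in the brightest. Decreases were the larger in the second bin (1.176 and -1.183) and in the dimmest (1.36 and -1.52). The dimmest bin held only 12 increases and 3 decreases. Called changes of at least 2-fold were mostly upward in every bin, with 23 against 2 in the seventh and 9 against 3 in the brightest. The count of 191 depended on the pseudocount, with 75 (61 upward) at a pseudocount of 100 and 229 at 4, and an unmoderated test left 3 (1 upward). The share was 81.8% after quantile normalization of the arrays, and between 78.4% and 87.8% when any array of the series was left out.

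**Figure D1:**
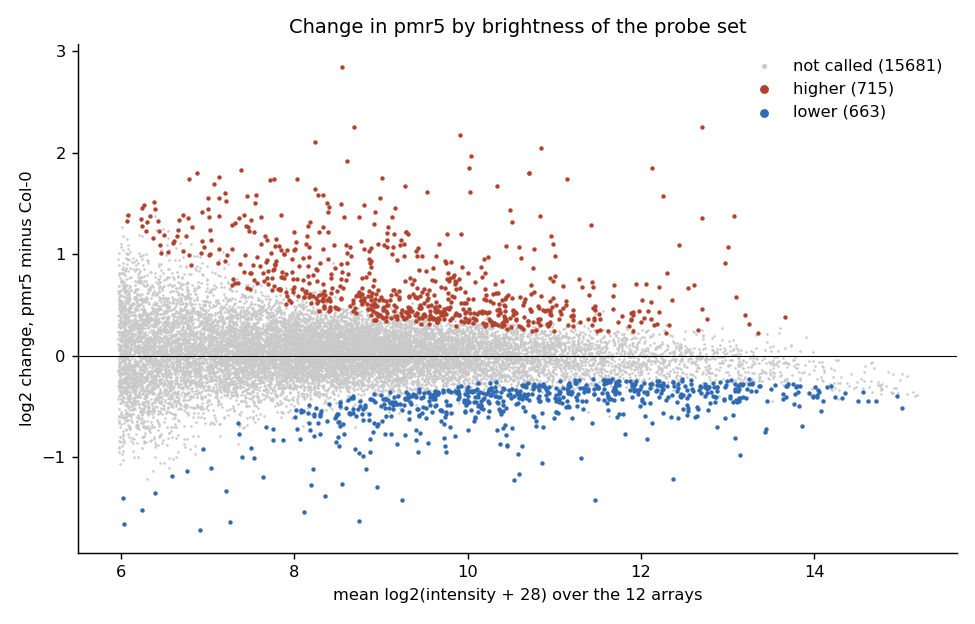
Log2 change in pmr5 against Col-0 (vertical axis) by the mean log2(intensity + 28) of the probe set over the 12 arrays (horizontal axis) for the 17059 probe sets tested. Red points are the 715 called higher, blue points the 663 called lower and grey points those not called. Large increases reach further from 0 than large decreases, and blue points gather at the bright end.

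Calling depended on brightness. The tested probe sets were divided into 10 bins of equal size by mean level, from a median intensity of 48.2 in the dimmest to 3818.4 in the brightest. The share called rose with every bin, from 0.879% in the dimmest through 5.63% in the fifth to 22.6% in the brightest. The median SD within genotypes fell over the same bins from 0.49 to 0.10 on the log2 scale. The smallest change called was 1.16 in the dimmest bin and 0.22 in the brightest, so a small change of a dim probe set was not detectable with these arrays. Of the probe sets that changed at least 2-fold, 41 were not called, with a median intensity of 58 against 295.6 for those called.

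Direction depended on brightness as well. In the dimmer 5 bins, 203 of 250 calls (81.2%) were increases, whereas in the brightest bin 85 of 385 (22.1%) were. The median change of all probe sets, called or not, was 0.05 in the dimmer 5 bins and -0.07 in the brightest bin. The pmr5 arrays also had a lower bright end, with 99th percentiles of 9112.9, 10155.8 and 8915.6 against 10811.1, 10203.4 and 10369.2 in Col-0. Quantile normalization gives all arrays the same range of intensities, and with it the brightest bin held 157 increases among 333 calls (47.1%) and the dimmer 5 bins 147 among 205 (71.7%). On that scale increases and decreases were nearly even among bright probe sets, and increases still outnumbered decreases among dim ones. The total split moved little, from 51.9% upward to 52.5%.

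**Figure D2:**
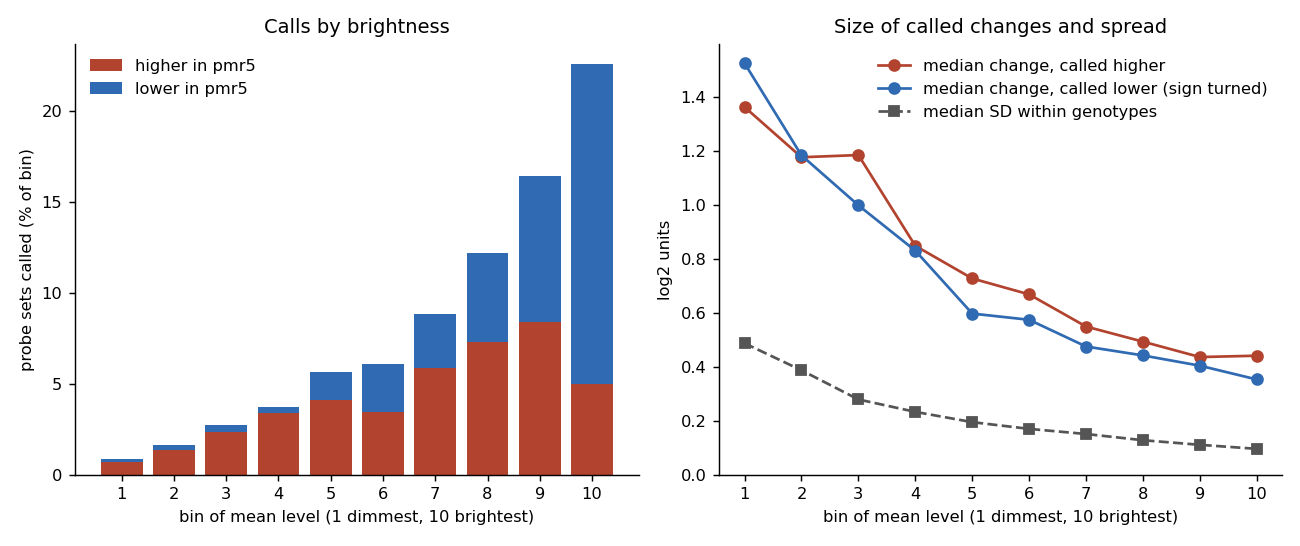
The left panel gives the percentage of probe sets called higher (red) and lower (blue) in pmr5 in each of 10 bins of mean level, and the right panel the median size of the called changes in each direction (red and blue circles) beside the median SD within genotypes (grey squares), all in log2 units. The share called rises from 0.879% to 22.6%, and the sizes fall as the SD falls.

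Among the called probe sets, the 3 replicate numbers gave similar median differences. The difference between pmr5 and Col-0 within a number had a median of 0.57, 0.63 and 0.58 among the 715 probe sets that rose and of -0.46, -0.39 and -0.42 among the 663 that fell, for numbers 1, 2 and 3. All 3 differences had the same sign in 707 of the 715 and in 658 of the 663, against 6992 of all 17059 tested (41%). These counts describe the arrays that made the calls. The groups did not overlap in 681 of those that rose and in 653 of those that fell, beside 23.8% of all probe sets tested, 13.3% with pmr5 above Col-0 and 10.5% with it below. Of the 4060 probe sets without overlap, 2726 were not called.

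Each number was also left out in turn of all 4 genotypes, so that its arrays played no part in the calls. Without number 1, 633 probe sets were called (3.71%), and 365 of 380 increases and 246 of 253 decreases had the same direction in the left-out arrays. Without number 2, 650 were called (3.81%), and the same held for 280 of 306 increases and 302 of 344 decreases. Without number 3, 856 were called (5.02%), and it held for 460 of 487 increases and 347 of 369 decreases. Over all probe sets the difference was above 0 in 55.2%, 51.2% and 52.2% of them in the 3 numbers. Those shares are not matched for brightness. At or above the median level lay 234 of the 253, 333 of the 344 and 341 of the 369 decreases. The left-out difference was smaller than the change that had led to the call: the median ratio was 0.75, 0.87 and 0.77 for increases and 0.92, 0.59 and 0.81 for decreases. For decreases called without number 2, the median was -0.32 in number 2 and -0.52 in the other numbers.

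**Figure D3:**
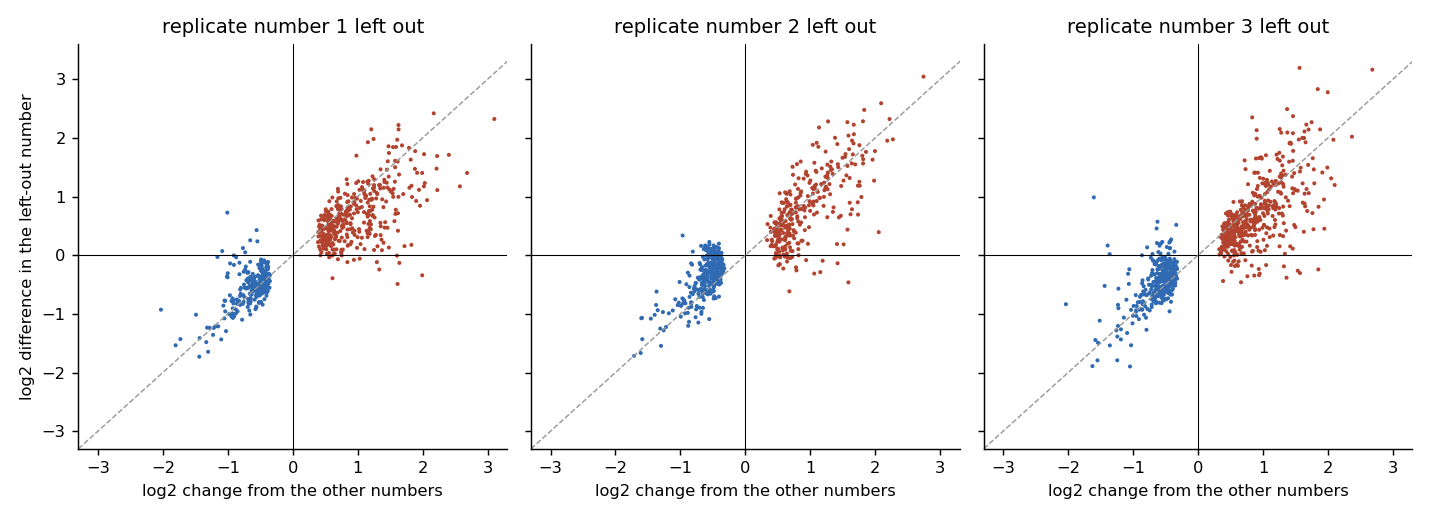
Each panel leaves out 1 replicate number and plots the probe sets called from the other numbers, with the log2 change from those numbers on the horizontal axis and the log2 difference between the left-out pmr5 and Col-0 arrays on the vertical axis. Red points were called higher and blue points lower, and the dashed line marks equal values. Most points have the same sign on both axes, as the counts of 365 of 380 increases and 246 of 253 decreases for number 1 show.

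The largest increase was at row 10504 of the table. Its intensity was 217.6, 156.3 and 139.2 on the Col-0 arrays and 1199.7, 1491.2 and 1468.7 on the pmr5 arrays. The change was 2.84 on the log2 scale (SE 0.18, limma adjusted p = 1.3e-08), and the nearest arrays of the 2 groups lay 2.32 apart. Row 15010 was as even: 138.4, 145.8 and 166.6 in Col-0 and 861, 840 and 761.1 in pmr5, a log2 change of 2.25 (SE 0.15, limma adjusted p = 1.3e-08). In both, every pmr5 array was at least 4-fold above every Col-0 array on the log2(intensity + 28) scale.

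The brightest of the 8 largest increases was at row 1343, which stood at the 97th percentile of mean level. It rose from 4508.6, 1672.4 and 1132.9 in Col-0 to 11961.2, 10208.8 and 7928.5 in pmr5 (log2 change 2.26, SE 0.28, limma adjusted p = 2.7e-05). Col-0 replicate 1 stood well above the other Col-0 arrays there and still below all pmr5 arrays. Row 21342 rose from 769.8, 482.6 and 417.6 to 2545.7, 2813.2 and 1715.6 (log2 change 2.04, SE 0.18, limma adjusted p = 5.1e-07). Row 1660 rose from 635, 231.7 and 251.3 to 1815.4, 1235.4 and 1206.4 (log2 change 1.97, SE 0.24, limma adjusted p = 2.1e-05). In both of these Col-0 replicate 1 was again the highest wild-type array, and no array of 1 group entered the range of the other.

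Row 7140 was spread over 484.8, 235 and 95 in Col-0 and stood at 1650.1, 1005.6 and 846.9 in pmr5 (log2 change 2.17, SE 0.32, limma adjusted p = 1.6e-04). Row 10373 had the widest spread in Col-0, 230, 86.2 and 13, against 553.7, 413.9 and 347 in pmr5 (log2 change 2.11, SE 0.40, limma adjusted p = 0.0018). Its change was 1.42 with Col-0 replicate 3 left out and 2.74 with Col-0 replicate 1 left out, and limma's adjusted p was 0.054 without the variance trend and 0.066 with the robust trend. Row 9428 rose from 144.7, 110.5 and 70.1 to 541.6, 445.8 and 444.1 (log2 change 1.92, SE 0.22, limma adjusted p = 8.6e-06). In 7 of the 8 largest increases replicate 1 was the highest Col-0 array, and in 6 of the 8 it was the highest pmr5 array.

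The most even of the 8 largest decreases was at row 19654. Its intensity fell from 677.8, 768.6 and 782.8 in Col-0 to 233.9, 222.9 and 206 in pmr5, with a log2 change of -1.63 (SE 0.12, limma adjusted p = 6.6e-08). Row 16493 fell from 546.4, 602.6 and 515.4 to 145.1, 205.7 and 171.5 (log2 change -1.54, SE 0.19, limma adjusted p = 2.1e-05). The brightest, row 10914, fell from 5585.9, 5645.3 and 6081.9 to 2079.9, 2666.8 and 1736.1 (log2 change -1.43, SE 0.12, limma adjusted p = 4.4e-07). Row 2645 fell from 1138.4, 959.2 and 1334 to 344.5, 442.8 and 441.2 (log2 change -1.42, SE 0.17, limma adjusted p = 1.6e-05). In these 4 every pmr5 array was below 50% of the lowest Col-0 array on the log2(intensity + 28) scale, with gaps between 1.06 and 1.43.

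The other 4 were dim in pmr5. At the pseudocount of 28, row 12112 had the largest change, -1.71 (SE 0.29, limma adjusted p = 6.1e-04), from 192.1, 279.4 and 261.2 in Col-0 to 47.9, 65.6 and 50 in pmr5. Row 10713 stood at 96.7, 100.6 and 104.6 in Col-0 and at 37.5, 3.2 and 4.8 in pmr5 (log2 change -1.66, SE 0.38, limma adjusted p = 0.008). The groups in both were apart, by 1.23 and 0.93 at the nearest arrays. The sizes and the order of these dim rows depended on the pseudocount: row 12112 changed by -2.08 at a pseudocount of 4 and -1.15 at 100, and row 10713 by -2.92 and -0.81. At 100, rows 10914 (-1.40) and 19654 (-1.39) changed more than either. In row 10832 the intensity fell from 106.6, 146.2 and 165 to 13.8, 38.3 and 40.6 (log2 change -1.52, SE 0.37, limma adjusted p = 0.012). Its change was -2.13 at a pseudocount of 4 and -0.87 at 100, and the call was lost in 5 of 23 other settings, among them leaving out pmr5 replicate 1 (limma adjusted p = 0.067). Row 7930 was the least even, at 189.7, 300 and 332 in Col-0 and 20.1, 60.5 and 173.8 in pmr5 (log2 change -1.63, SE 0.46, limma adjusted p = 0.029). Its groups lay only 0.11 apart at the nearest arrays, and it lost the call in 10 of 23 other settings, with a change of -1.14 and a limma adjusted p of 0.19 without pmr5 replicate 1.

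**Figure D4:**
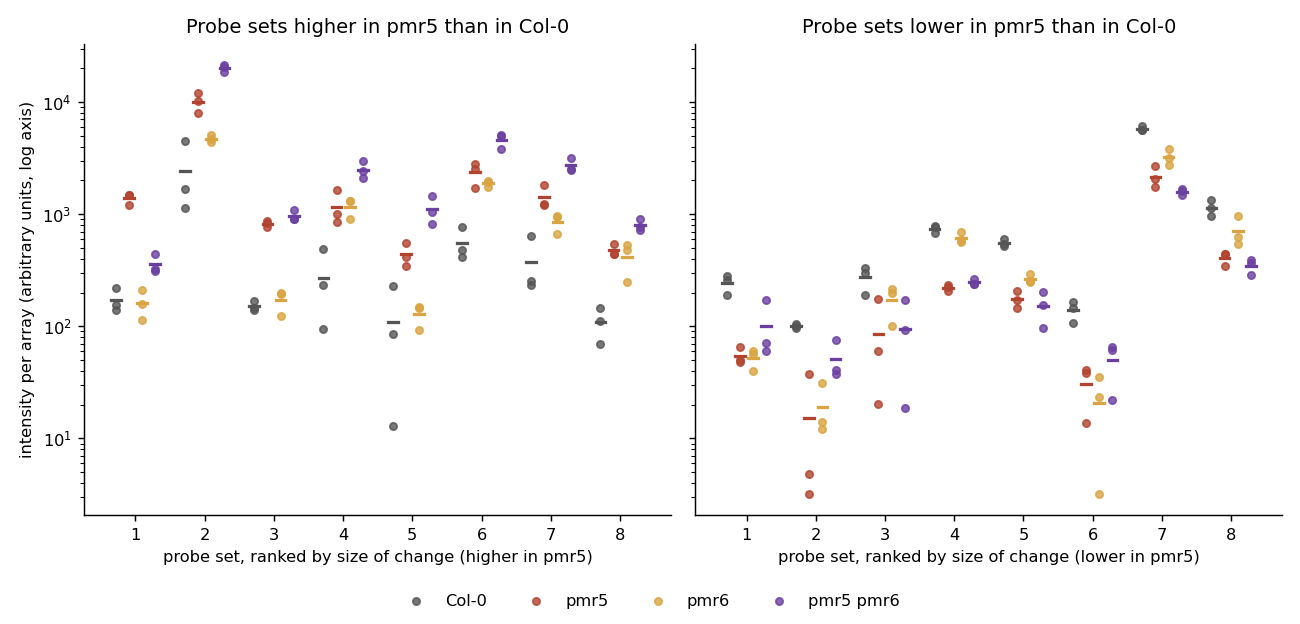
Intensity on each array (points, log axis, arbitrary units) and genotype mean (short lines) for the 8 largest increases (left) and the 8 largest decreases (right) in pmr5, ranked by size from left to right, with n = 3 arrays per genotype. Grey and red points do not overlap in any of the 16, since that was a condition of the choice. The third decrease has the smallest gap, 0.11 on the log2 scale.

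At the threshold, calls were small or noisy. Just inside it lay row 21193, at 508 ± 47.9 in Col-0 and 713 ± 29.1 in pmr5 (SD, n = 3 each, limma adjusted p = 0.0497). Row 7623, also inside, stood at 65.8 ± 80.3 and 153.5 ± 45.8 (SD, n = 3 each, limma adjusted p = 0.0499). The third, row 7890, fell from 2780.4 ± 468.9 to 2128.6 ± 66.6 (SD, n = 3 each, limma adjusted p = 0.0499). Just outside it were rows 12645, 15040 and 3411, with log2 changes of -0.36, 0.29 and 0.43 and limma adjusted p-values of 0.0502, 0.0502 and 0.0503.

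The pmr5 mutation is carried by the double mutant too, and pmr5 pmr6 was set against pmr6 with 6 arrays of which none is in the comparison above. All pmr6 arrays ran on fluidics module 3 and all pmr5 pmr6 arrays on module 4, so module and mutation cannot be told apart here either. Median intensities were 187.1, 177.4 and 190 in pmr5 pmr6 and 174.8, 169.9 and 172.4 in pmr6. The 99th percentiles were 9726.5, 9755.2 and 10354.2 against 10433, 10476.9 and 10326.8. The agreement in direction given below was not computed after quantile normalization, so the part of such shifts in it was not tested. The instrument record of pmr5 pmr6 replicate 2 says that its staining step was stopped. Replicate 3 of pmr5 pmr6 had a raised dim end, like pmr5 replicate 1, with a 5th percentile of 9.2 against 3.3, 3.5 and 4 on the pmr6 arrays. Of the 715 probe sets that rose in pmr5, 656 (91.7%) were higher in pmr5 pmr6 than in pmr6, and 342 were called in that direction and 2 in the other. Of the 663 that fell, 631 (95.2%) were lower, and limma called 320 in that direction and 0 in the other (3 had an unadjusted p under 0.05 there). Over all probe sets tested, 9248 (54.2%) were higher in pmr5 pmr6, and 8.26% were called, 4.13% higher and 4.13% lower. These shares of all are not matched for brightness, on which calling depended in pmr5 against Col-0. The spread behind all calls was estimated from the same 12 arrays. The 1409 calls of this comparison became 773 when pmr6 replicate 3 was dropped, 818 when replicate 1 of the double mutant was and 939 when its replicate 2 was.

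Median changes in the pmr6 background had the same direction and a smaller size. Probe sets that rose had a median log2 change of 0.60 in the Col-0 background and 0.40 in the pmr6 background, and those that fell had -0.41 and -0.30. The median ratio of the effects was 0.67 for increases and 0.69 for decreases. The probe sets were chosen by their change in the Col-0 background, so these ratios do not compare the backgrounds. By size, the median change in the pmr6 background was 0.25 for increases under 1.5-fold, 0.53 for those between 1.5- and 2-fold, 0.88 for those between 2- and 4-fold and 1.68 for the 6 over 4-fold. For decreases it was -0.28, -0.47 and -0.59 in the first 3 classes. Of the 27 decreases of at least 2-fold, 21 (77.8%) had the same direction in the pmr6 background, against 100 of 104 and 510 of 532 in the smaller classes, and these shares were not tested against each other.

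The difference between the backgrounds was tested by the interaction term, which 20 of all 17059 probe sets passed (0.117%). That term subtracts the change in the Col-0 background, by which the probe sets described here were chosen, so it is no independent test of them, and their differences are given as values. Row 10504, the largest increase, stood at 209.1, 114.7 and 157.6 in pmr6 and at 444.4, 313.8 and 324.6 in pmr5 pmr6. Its change was 2.84 in the Col-0 background and 1.06 in the pmr6 background, a difference of -1.78 (SE 0.26). Row 12112, the largest decrease, stood at 60.2, 56.9 and 40 in pmr6 and at 172.3, 71.5 and 60.6 in pmr5 pmr6. Its change was -1.71 in the Col-0 background and 0.60 in the pmr6 background, a difference of 2.31 (SE 0.41). The changes of both single mutants added together would put row 12112 at 4.61 on the log2 scale in the double mutant, a level below the 4.81 that an intensity of 0 gives. The same sum was 3.875 for row 10713 and 4.018 for row 10832, which did not pass the interaction threshold. These sums use the Col-0 arrays by which the rows were chosen, and the part of this lower limit in the differences was not tested.

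For the other largest increases the values in the other genotypes are given as a description, and none of these rows passed the interaction threshold. Row 15010 was at 171.3 ± 42.1 in pmr6 and reached 967.4 ± 112.3 in the double mutant (SD, n = 3 each), with a log2 change of 2.34 in the pmr6 background against 2.25 in Col-0. Row 10373 was at 129.2 ± 31.6 in pmr6 and reached 1104.1 ± 327.9 in the double mutant (SD, n = 3 each). The log2 changes of pmr6 against Col-0 were 1.19, 2.21, 1.76, 1.26 and 1.68 in rows 1343, 7140, 21342, 1660 and 9428. That comparison, in which 3.39% of all probe sets were called, and the double mutant against Col-0, with 19.3% called, share the Col-0 arrays by which the rows were chosen, so nothing is read from their agreement. All 8 of the largest increases were called higher in pmr5 pmr6 against pmr6, beside 4.13% of all probe sets tested, a share not matched for brightness.

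Among the largest decreases, row 19654 measured 617.5 ± 70 in pmr6 and only 248.2 ± 15 in the double mutant (SD, n = 3 each). Its change in the pmr6 background was -1.22 against -1.63 in Col-0, and the change of pmr6 against Col-0 was -0.26. Rows 16493, 10914 and 2645 were also called lower in the pmr6 background, with changes of -0.76, -1.01 and -0.94. The dim rows 10713 and 10832 stood in pmr6 at 19.2 ± 10.7 and 20.6 ± 16.2 (SD, n = 3 each), and in the double mutant at 51.4 ± 21.4 and 49.7 ± 24. Neither was called in the pmr6 background, with limma adjusted p-values of 0.27 and 0.30. In all, 4 of the 8 largest decreases were called lower in pmr5 pmr6 against pmr6, beside 4.13% of all probe sets tested, again not matched for brightness.

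The probe sets that rose in pmr5 shifted by similar amounts on all arrays of a genotype. Their median level above the Col-0 mean was 0.65, 0.60 and 0.54 on the pmr5 arrays, 0.42, 0.42 and 0.33 on the pmr6 arrays and 0.87, 0.84 and 0.76 on the pmr5 pmr6 arrays, in the order of the replicate numbers. For the probe sets that fell it was -0.46, -0.39 and -0.40, then -0.28, -0.25 and -0.21, and then -0.56, -0.55 and -0.52. Over all probe sets tested these medians ran from -0.006 to 0.052. All these values are set against the same 3 Col-0 arrays, and on the pmr5 and Col-0 arrays the choice of probe sets fixes their direction.

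**Figure D5:**
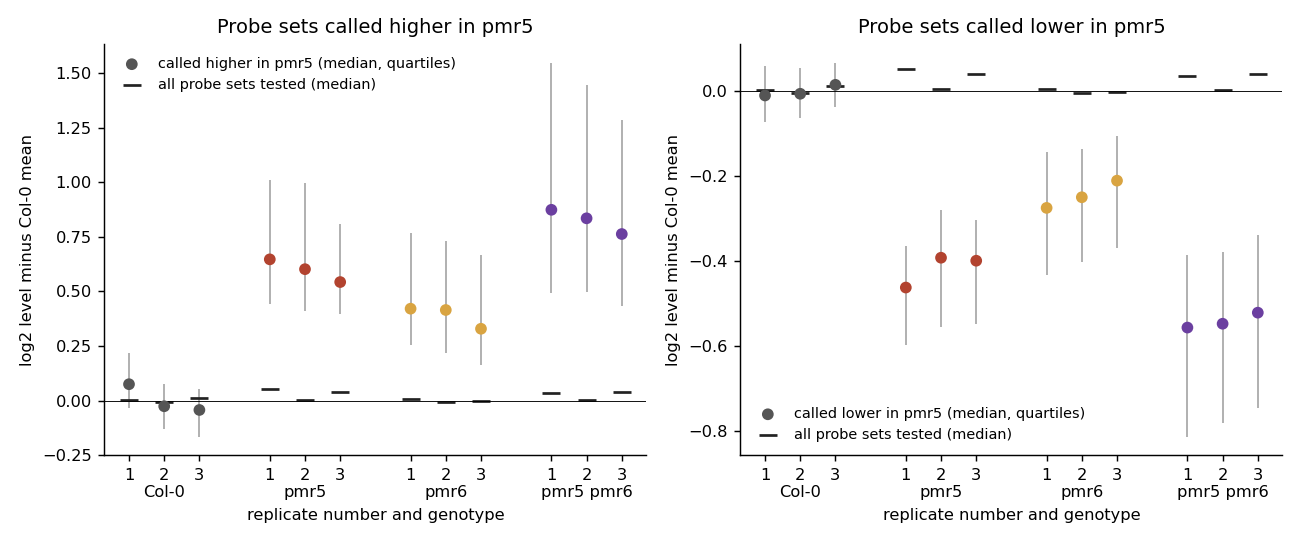
Median log2 level minus the Col-0 mean on each of the 12 arrays for the 715 probe sets called higher in pmr5 (left) and the 663 called lower (right). Coloured points are medians with lines from the lower to the upper quartile, and black dashes are the medians of all 17059 probe sets tested. The pmr6 arrays lie between Col-0 and pmr5, and the pmr5 pmr6 arrays beyond pmr5.

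The probe sets that rose also varied among the wild-type arrays. Their median deviation from the Col-0 mean was 0.07, -0.03 and -0.04 on Col-0 replicates 1, 2 and 3. Replicate 1 was the highest of the 3 Col-0 arrays in 376 of the 715 (52.6%), against 34.8% of all probe sets tested. It was the highest pmr5 array in 49.2%, the highest pmr6 array in 42% and the highest pmr5 pmr6 array in 48.3%, against 37.4%, 33.6% and 33.3% of all. The SD among the Col-0 arrays was 1.33 times the median of the same bin of brightness for a typical probe set that rose, and 0.85 times for one that fell. Replicate 1 of every genotype was hybridized in the same run, and the part of the run in these values was not tested.

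Called probe sets were counted beside each other in the table. A probe set that rose was followed by another that rose in 31 of 595 cases (5.21%, beside 4.19% of all), and one that fell by another that fell in 34 of 556 (6.12%, beside 3.89%). Opposite neighbours numbered 28 and 25. Across the 12 arrays, 17 of the 31 rising pairs and 17 of the 34 falling pairs had profiles correlated over 0.8. Since neighbouring rows also resemble each other in level, and bright probe sets were called more often, these counts are given as a description.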

How the data were processed

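The deposited table holds linear intensities, 1 for each probe set and array. As read from the values, the authors scaled all arrays to a common level: the mean without the highest and lowest 2% of rows was 500 on each. The software and its version are not given in the sources used here, and the number of arrays limits the precision. Per the file headers, hybridization times at most 30 minutes apart make up 1 run, and 3 runs were found.

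Intensities were turned to log2(intensity + 28), where 28 is the 20th percentile of the table. The limma package (3.58.1, under R 4.3.3) estimated the mean of each of 4 genotypes from the 12 arrays, with an intensity trend in eBayes and with 8 residual and 12 prior degrees of freedom, and the procedure was checked on simulated data. The run was not a block in the main model although the headers tie it to the replicate number. Over all probe sets tested, deviations of same-numbered Col-0 and pmr5 arrays correlated at 0.08, 0.06 and 0.02. The block mattered more for single rows: limma's adjusted p went from 1.6e-04 to 3.4e-06 for row 7140 and from 0.029 to 0.04 for row 7930.

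The probe sets described singly were the 8 largest called changes in each direction without overlap of the groups; those nearest the threshold were also taken by rule. This comparison, its tests and its lists were chosen with earlier results of these data known. Gene lists were prepared and not used, since no order of the identifiers was accepted; further orders tried after these results were seen were not accepted either. Plots came from matplotlib 3.10.9 (Python 3.11.15).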

Additional observations from a re-analysis of the deposited data

Results flagged for a closer look

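The limma interaction term, the change in the pmr6 background minus that in the Col-0 background, passed the threshold for the largest increase, row 10504 (-1.78 on the log2 scale), and for the largest decrease, row 12112 (2.31). Both rows were chosen by the change in the Col-0 background, which the term subtracts, so the values are a description and not an independent test. When all 22810 rows were fitted, 1 of the 64 rows with AFFX identifiers, left out of the main tests, was called in pmr5 against Col-0 (1175 of all rows, 5.15%, were). That row stood at 306.8, 325.4 and 411.8 in Col-0 and at 199.1, 207.9 and 207.1 in pmr5 (limma adjusted p = 0.0297). Whether it holds a control transcript is not known here, since no order of identifiers was accepted. In the same fit, 9 of the 5687 dim rows left out of the main tests were called, 5 of them higher in pmr5.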

How the results depend on the processing

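The 1378 calls of pmr5 against Col-0 became 645 without the variance trend, 886 without both arrays with a raised dim end (chosen after seeing the data), 191 when a change of at least 2-fold was also asked for, and 25 with an unmoderated test of 3 against 3 arrays, which gave 2667 an unadjusted p under 0.05. The counts ran from 784 to 1460 when single arrays were left out, and 758 of the 784 were among the 1378. The 1409 calls of pmr5 pmr6 against pmr6 became 677 without the variance trend and ran from 773 to 1494 without single arrays. The causes were not tested. The replicate block gave 1462, of which 1343 were among the 1378, and 1475; it changed neither count by over 1.5 times and changed no call among the 16 probe sets described singly. Other pseudocounts (4 and 100), dim filters (none or 50%), the robust trend, quantile normalization, the first 64 rows as controls and fits of 6 arrays kept both counts within 1.5 times. The share of increases in the brightest bin was 47.1% after quantile normalization and between 16.5% and 27.7% with single arrays left out, against 22.1%. None of the 16 probe sets described singly changed direction in the settings in which it was tested (4 dim decreases, rows 12112, 10713, 7930 and 10832, fell out with the 50% filter), and rows 15010 and 19654 kept the call in all of them, the unmoderated test included. Pairs of rows of the same gene correlated at 0.08 without identifiers ending in _s_at or _x_at.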
